A study of Homo sapiens with 17 samples.

Results

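Tumors from mice given 13-cis-retinoic acid (13-cis-RA) were compared with control tumors: 4 RA tumors and 5 control tumors, which are 9 of the 17 RNA-seq libraries of the series. The 9 libraries were taken by their labels, with no use of expression values. All tumors grew from luciferase-labeled CHP-134 cells, a line of human neuroblastoma with extra copies of the oncogene MYCN, injected under the skin of female athymic nude mice about 12 weeks old. RA tumors came from mice given 13-cis-RA by oral gavage, 25 mg/kg in each of 2 daily doses, on days 1 to 14 of a 28-day course, and control tumors were labeled untreated, while the study's text calls its control xenografts vehicle-treated. Nude mice lack T cells and keep other blood and stromal cells, and all tumors derive from a single cell line. Tumors assayed for drug levels were collected within 2 weeks of the last treatment, but the time was not given for each RNA library, and neither was it stated that each library came from a separate mouse, so p-values measure the spread between these tumors. The remaining 8 libraries are of CHP-134 cells in culture with all-trans retinoic acid (ATRA) or DMSO, and they enter here only as values set beside those of tumors.

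Retinoic acid enters the nucleus with its binding proteins and activates retinoic acid receptors (RARA, RARB and RARG), which bind DNA with retinoid X receptors and switch on target genes. Among these targets are RARB itself and the CYP26 enzymes, which break retinoic acid down. In neuroblastoma, a tumor of the embryonic sympathetic lineage, retinoids can slow division and drive extension of neurites. For CHP-134 cells in culture, the study reports that ATRA mainly caused apoptosis, and that the few surviving cells took on features of neurons. Patients are given 13-cis-RA as maintenance therapy. 13-cis-RA is a stereoisomer of ATRA and turns into it in part in the body. Bone morphogenetic protein (BMP) signaling, which the study follows, acts through receptors and SMAD proteins and raises the ID genes, which code for inhibitors of differentiation factors.

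The receptors bind a direct repeat of a short motif, and the promoter of RARB holds the textbook case. The stretches of RARB and CYP26A1 that hold the repeat are shown because these genes are classical direct readouts of retinoid activity. The searched letters were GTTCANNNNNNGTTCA, on both strands, in windows running from 250 bases before to 50 bases after each start site (RefSeq, GRCh38.p14), and capitals mark the match.
RARB: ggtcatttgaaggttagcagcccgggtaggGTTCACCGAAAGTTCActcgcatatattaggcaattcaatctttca
CYP26A1: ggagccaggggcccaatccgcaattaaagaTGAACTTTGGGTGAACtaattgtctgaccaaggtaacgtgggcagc
The first is chr3:25428181-25428256 (+ strand), with the match 52 to 37 bases before the start of the RARB transcript, and the second is chr10:93073773-93073848 (+ strand), with the match on the opposite strand 90 to 75 bases before the start of CYP26A1. Of 35116 windows, 20 (0.0570%) held these letters. Of the 9 genes with a match that were tested in tumors, RARB was called higher in RA tumors (an adjusted p under 0.05), and the others were not called. A match is a description of the sequence and not evidence of a bound site.

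Libraries of RA tumors held 17326055 to 29078889 expected counts and those of control tumors 17266558 to 19995798. Levels below are CPM, counts scaled by TMM to a common library total. A log2 fold change (RA over control) is followed by its SE, and FDR is the adjusted p of edgeR's quasi-likelihood test over all 21098 genes tested. The 12 neuroblastoma markers were all detected, with a summed level of 4844 to 5217 CPM in RA tumors and 3662 to 5493 CPM in control tumors. Mitochondrial transcripts took 3.10 to 5.07% of counts in RA tumors and 3.42 to 5.74% in control tumors. Leukocyte markers summed to at most 6.67 CPM in RA tumors and 9.61 CPM in control tumors, with the pan-leukocyte gene PTPRC averaging 0.10 CPM in RA tumors and 0.13 CPM in control tumors. Control tumor 4 stood apart from the others: fibroblast markers summed to 66.1 to 80.1 CPM in RA tumors, against 160.4 CPM in control tumor 4 and 62.3 to 94.9 CPM in the other control tumors. Skeletal muscle markers summed to at most 9.42 CPM in RA tumors, against 301 CPM in control tumor 1 and at most 20.04 CPM in the other control tumors. Of the 8 marker lists of other cell types, edgeR and DESeq2 called no gene, limma voom called 1 (in the Schwann cell list), and 5 genes had an unadjusted p under 0.05 by edgeR. Whether the fibroblast and muscle transcripts come from host tissue was not tested. A step that removes mouse reads is not given in the sources used here.

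The first question was how many genes differed. At an FDR under 0.05, 296 genes (1.40% of those tested) were higher and 46 (0.218%) lower in RA tumors. Of these 342 genes, 316 code for protein and 21 are long noncoding RNAs. Changes were small: 52 genes (0.246%) were more than 2-fold higher and 8 (0.0379%) more than 2-fold lower. The median log2 fold change was 0.58 over the genes called higher and −0.53 over those called lower, against −0.01 over all genes tested. At an unadjusted p under 0.05, 3257 genes (15.4%) passed.

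Small changes in which the groups did not overlap made up most of the calls. Of the called genes with at most a 2-fold difference, 226 (1.07% of those tested) were higher in every RA tumor than in any control tumor, and 35 (0.166%) were lower in every RA tumor. Their median difference was 1.42-fold for the higher and 1.40-fold for the lower genes, and 171 of the 261 differed by less than 1.5-fold. With no test at all, groups did not overlap for 773 genes (3.66%) higher and 477 genes (2.26%) lower in RA tumors, so separation alone was common. The smallest fold called was 1.18 among higher genes and 1.24 among lower genes.

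The number of calls moved with the tumors in the fit. Without control tumor 4 it was 340 (291 higher, 49 lower), and 259 of the 342 genes were still called. Without RA tumor 4 it was 841 (588 higher, 253 lower), with 334 of the 342 still called. RA tumor 4 lay closest to the control tumors for most called genes: it was the lowest RA tumor for 188 of the 296 genes called higher and the highest RA tumor for 32 of the 46 called lower. Without RA tumor 1, 2 or 3 the count was 133, 79 and 120, and without control tumor 1, 2, 3 or 5 it was 254, 537, 164 and 156. The count of calls over 2-fold was 60 with all tumors, 33, 24, 28 and 160 without RA tumor 1, 2, 3 or 4, and 51, 91, 34, 73 and 33 without control tumor 1, 2, 3, 4 or 5. For the small separated changes the count was 261 with all tumors, 100, 55, 92 and 665 without RA tumor 1, 2, 3 or 4, and 203, 437, 130, 257 and 123 without control tumor 1, 2, 3, 4 or 5. Directions held, which the choice of called genes favors. Of the 342 genes, 341 kept their sign in all 9 fits that each left out 1 tumor. The other gene had no value in 1 fit. In all 9 of these fits, 70 genes were called, 67 higher and 3 lower (SPARC, NNAT and INHBE).

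**Figure D1:**
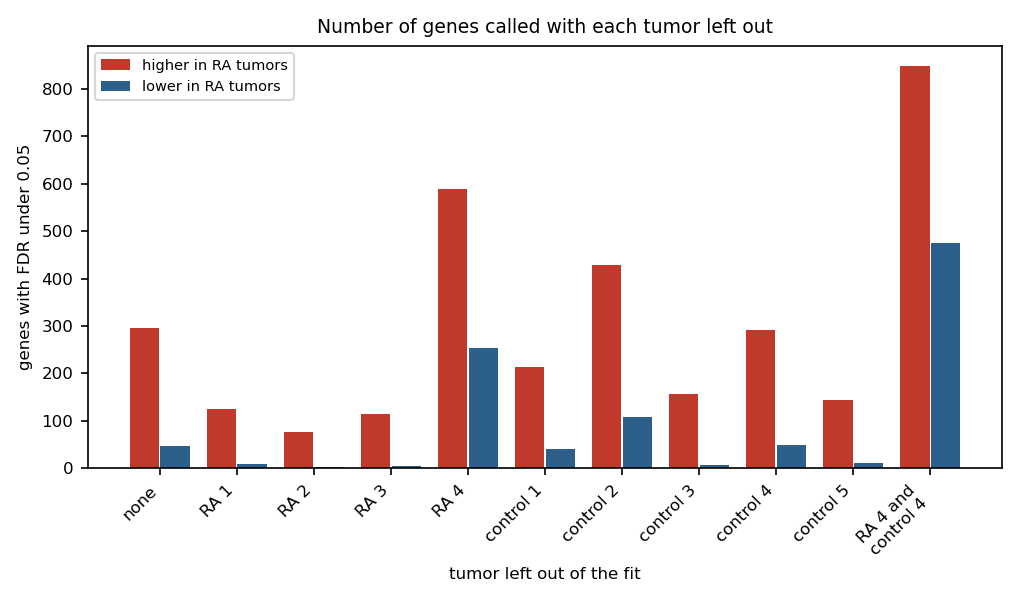
Number of genes called at an FDR under 0.05 (vertical axis), with bars for genes higher and lower in RA tumors, by the tumor left out of the fit (horizontal axis), from none to RA tumor 4 and control tumor 4 together. The count in both directions was 79 without RA tumor 2, 342 with all tumors, 841 without RA tumor 4 and 1325 without both.

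Among retinoic acid targets, RARB was called higher in RA tumors. RARB (ENSG00000077092, chr3:24687887-25597932, + strand, hg38), the receptor gene whose promoter is shown above, stood at 8.16, 10.3, 7.25 and 8.84 CPM in RA tumors 1 to 4, against 4.17, 4.00, 4.10, 3.03 and 3.65 CPM in control tumors 1 to 5. Every RA tumor was above every control tumor. Its log2 fold change was 1.19 ± 0.15 (FDR 0.00194), or 2.28-fold. It was called in all 9 fits that leave out 1 tumor. Gene lists here and below were chosen with earlier results of these data known, so their counts are a description. For comparison with each list, edgeR called 1.40% of all genes tested higher and 0.218% lower. Of 12 tested genes in the list of retinoic acid targets, 2 were called higher, RARB among them, and none lower. The list's median log2 fold change was 0.73, and 10 of the 12 genes had positive values. Without control tumor 4, 3 of the 12 were called.

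All 3 retinoic acid receptor genes were called higher. RARA, the receptor gene active in most cells, averaged 79.1 ± 11 CPM in RA tumors (SD, n = 4) and 49.7 ± 8.3 CPM in control tumors (SD, n = 5), with a log2 fold change of 0.67 ± 0.12 (FDR 0.0167) and no overlap. RARG was at 6.64 to 9.23 CPM in RA tumors and 4.53 to 5.96 CPM in control tumors, a log2 fold change of 0.61 ± 0.15 (FDR 0.0489). RARA was called in 7 of the 9 fits that leave out 1 tumor (FDR up to 0.069, lost without RA tumor 2 or control tumor 5), and RARG in 1 of 9, with an FDR of 0.0778 without control tumor 4. Of 14 genes tested in the list of retinoid receptors, carriers and enzymes, these 2 were called, and the list's median was 0.17.

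Other classical retinoid genes did not pass. CYP26A1, the enzyme that clears retinoic acid, was at 1.01, 0.815, 1.26 and 0.340 CPM in RA tumors, against 0.114, 0.701, 0, 0.433 and 0.442 CPM in control tumors (1.27 ± 0.60, FDR 0.332). The groups overlapped because RA tumor 4 was below 3 control tumors. CYP26B1, a related enzyme, had a log2 fold change of 1.00 ± 0.40 (FDR 0.232). CRABP1 and CRABP2, which carry retinoic acid in the cell, had 0.61 ± 0.18 (FDR 0.134) and 0.60 ± 0.26 (FDR 0.308). STRA6, the retinol transporter, had 0.23 ± 0.32 (FDR 0.785). DHRS3, which reduces retinaldehyde, and HOXB5 were under 0.35 CPM in every tumor and were not tested. RET, the GDNF receptor and a retinoid target in neuroblastoma, was at 3.69, 5.43, 3.46 and 3.50 CPM in RA tumors and 2.74, 2.85, 2.11, 1.41 and 1.88 CPM in control tumors, with no overlap and an FDR of 0.0674 (0.87 ± 0.22). ENPP2, which makes lysophosphatidic acid, was at 4.83, 5.01, 4.72 and 1.63 CPM in RA tumors and 0.457, 1.55, 0.648, 1.90 and 0.8292 CPM in control tumors (1.88 ± 0.42, FDR 0.051). RA tumor 4 alone lay within the control range, and the FDR was 0.0038 without it and 0.0312 without control tumor 4.

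**Figure D2:**
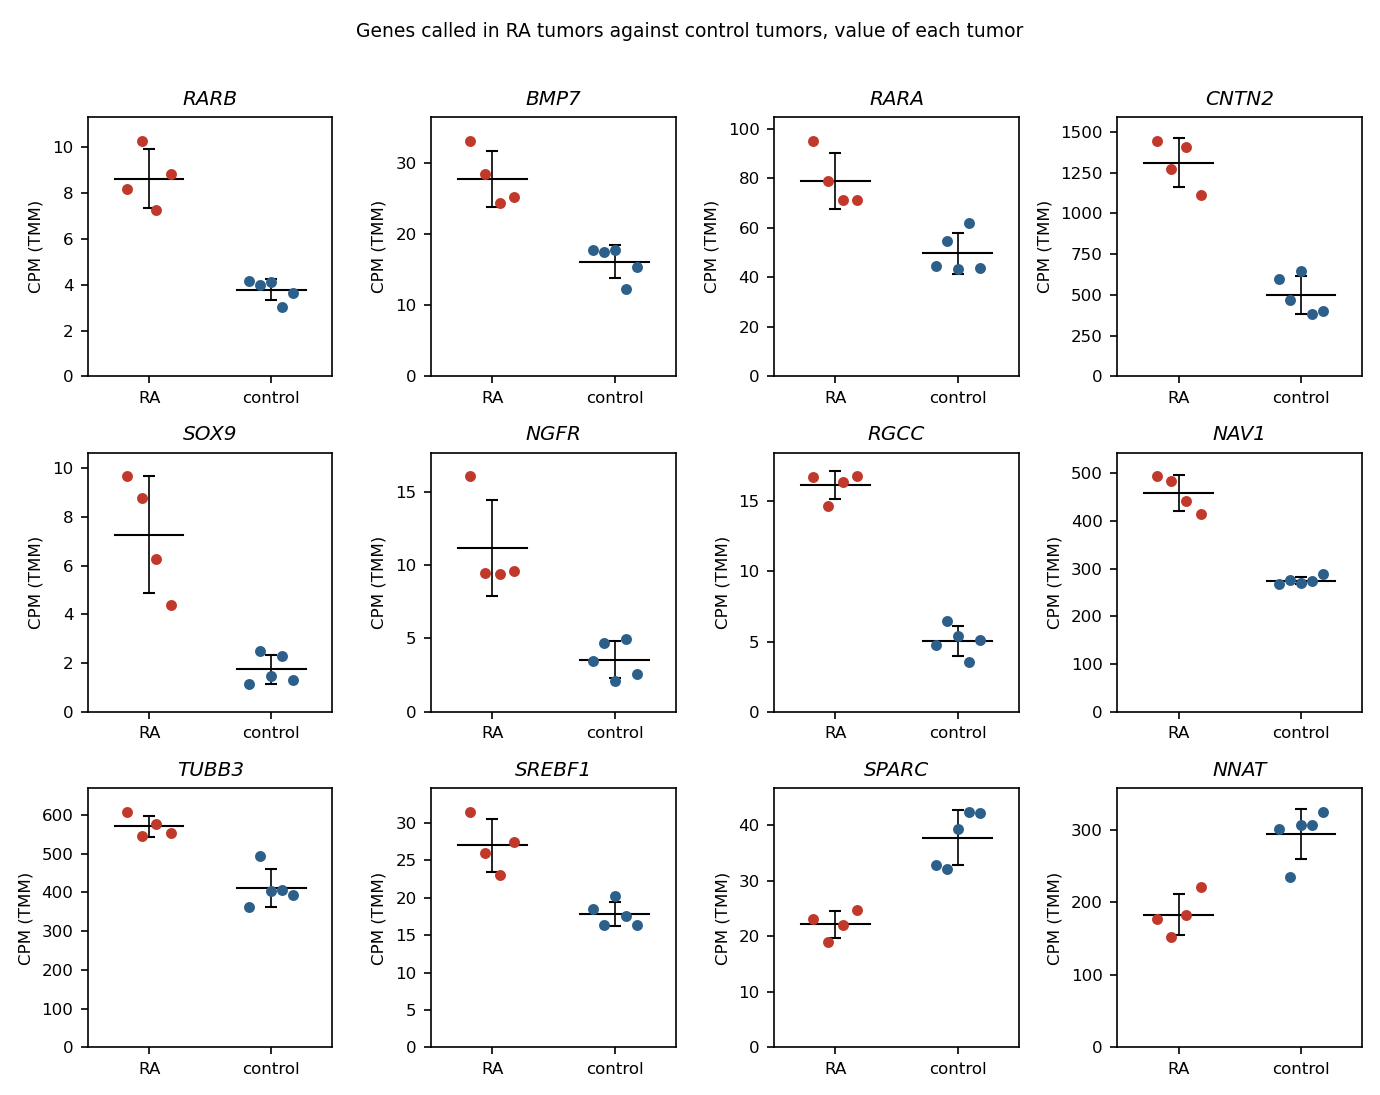
CPM (vertical axes, each starting at 0) of 12 called genes in 4 RA tumors (left) and 5 control tumors (right), 1 point per tumor, with the mean as a line and the SD as error bars. RA tumors sit above control tumors in 10 panels, for example CNTN2 at 1115 to 1445 CPM in RA tumors and 382 to 646 CPM in control tumors, and below them for SPARC and NNAT.

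The largest increases were in genes that were near silent in control tumors. ADH1C (chr4:99336497-99352746, − strand), an alcohol dehydrogenase of the family that oxidizes retinol, held 51, 60, 61 and 19 counts in RA tumors, against 1, 0, 0, 0 and 1 in control tumors. In CPM the ratio of the summed groups was 94.7, with an exact 95% interval for counting error of 25.9 to 787, and the fitted log2 fold change was 6.30 ± 0.69 (FDR 0.000941). ADH1C is close in sequence to ADH1A and ADH1B, so reads may be shared among them. LINC01587, a long noncoding RNA named for the size of its change after its values were seen, was at 3.93, 3.03, 1.73 and 1.12 CPM in RA tumors and at most 0.217 CPM in control tumors (4.16 ± 0.50). Both genes were lowest in RA tumor 4 among the RA tumors and called in all 9 fits that leave out 1 tumor.

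Further protein-coding genes with the largest increases have roles in matrix, cell fate and signaling. SOX9 (chr17:72121020-72126416, + strand), a transcription factor of glial and neural crest lineages, was at 9.65, 8.77, 6.26 and 4.38 CPM in RA tumors and 1.14, 2.50, 1.46, 2.28 and 1.33 CPM in control tumors (2.04 ± 0.27, FDR 0.00397). NGFR, the low-affinity neurotrophin receptor, was at 16.02, 9.47, 9.40 and 9.62 CPM in RA tumors and 2.11 to 4.93 CPM in control tumors (1.63 ± 0.25, FDR 0.0108). RGCC (chr13:41457550-41470871, + strand), a regulator of the cell cycle, was at 16.7, 14.7, 16.4 and 16.8 CPM in RA tumors and 4.75, 6.46, 5.40, 3.52 and 5.14 CPM in control tumors (1.67 ± 0.14, FDR 9.23e-05). RGCC is an exception to the position of RA tumor 4, which was the highest of the RA tumors there. LOXL4, an enzyme that cross-links matrix proteins, had a log2 fold change of 2.10 ± 0.24, FAM163A, a gene first described in neuroblastoma, 2.06 ± 0.22, and PLCL1, a phospholipase C-like protein, 1.62 ± 0.21. All 6 of these genes were called in each of the 9 fits that leave out 1 tumor. ADORA2A, an adenosine receptor, had 1.76 ± 0.32, LIX1 1.94 ± 0.33, TMEM272 1.72 ± 0.36, the costimulatory ligand ICOSLG 1.68 ± 0.38 and MALRD1 1.51 ± 0.33. ADORA2A was called in all 9 fits, LIX1 in 8 (lost without RA tumor 2), TMEM272 in 4, ICOSLG in 3 and MALRD1 in 1, with FDR with all tumors of 0.0283, 0.0408 and 0.0393 for the last 3.

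CNTN2 (chr1:205042937-205078289, + strand), a contactin that guides axons, was higher in every RA tumor than in any control tumor. It was at 1445, 1271, 1408 and 1115 CPM in RA tumors and 597, 469, 646, 382 and 400 CPM in control tumors. The groups were separate by a wide margin, and the log2 fold change was 1.39 ± 0.16 (FDR 0.00578). It was called in all 9 fits that leave out 1 tumor.

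Among small increases the smallest FDR was that of NAV1 (chr1:201539127-201826969, + strand), a neuron navigator protein of growing axons. It was at 493, 484, 441 and 414 CPM in RA tumors and 268, 275, 269, 273 and 289 CPM in control tumors. The mean was 458 ± 37 CPM in RA tumors (SD, n = 4) and 275 ± 8.3 CPM in control tumors (SD, n = 5), and the log2 fold change was 0.74 ± 0.06 (FDR 9.23e-05). CRMP1, which acts in semaphorin signaling, was at 481 to 520 CPM in RA tumors and 325 to 400 CPM in control tumors (0.50 ± 0.07, FDR 0.00401). NFASC, a cell adhesion protein of axons, was at 219 to 239 CPM in RA tumors and 115 to 168 CPM in control tumors (0.68 ± 0.09). IQSEC1, an exchange factor for ARF proteins at synapses, had 0.65 ± 0.09 and SRCIN1, a regulator of SRC in neurons, 0.53 ± 0.07. The acid-sensing channels ASIC1 and ASIC4 had 0.82 ± 0.11 and 0.99 ± 0.14. The ubiquitin ligase CBLB had 0.67 ± 0.07, the endoplasmic reticulum protein WFS1 0.88 ± 0.14, and KIAA1549L 0.56 ± 0.09. These 10 genes had the smallest FDR among called protein-coding increases of at most 2-fold whose groups do not overlap, so separation was a condition. Each was called in all 9 fits that leave out 1 tumor, which a choice by small FDR favors.

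Of 28 genes tested in the neuronal differentiation list, edgeR called 8 higher and 0 lower, against 1.40% and 0.218% of all genes. The list's median log2 fold change was 0.30, 23 genes had positive values and 5 negative, and 1 of the 5 had an unadjusted p under 0.05. DESeq2 and limma voom also called 0 lower. Of the 8, CNTN2 had the largest log2 fold change (1.39), and the other 7 had 0.39 to 0.51. TUBB3, a tubulin of neurons, was at 607, 547, 576 and 552 CPM in RA tumors and 362, 494, 404, 405 and 393 CPM in control tumors (0.47 ± 0.08, FDR 0.011). ENO2, the neuronal enolase, averaged 176 ± 19 CPM in RA tumors (SD, n = 4) and 124 ± 12 CPM in control tumors (SD, n = 5), with a log2 fold change of 0.51 ± 0.08 (FDR 0.0108). With CNTN2, these genes were called in all 9 fits that leave out 1 tumor. The other 5 were called in 1 to 3 of the 9 fits: the neurofilament NEFL (0.48 ± 0.10, groups overlapping), the microtubule proteins MAPT (0.43 ± 0.10), MAP2 (0.41 ± 0.09) and STMN4 (0.42 ± 0.10), and SNAP25 of synaptic vesicle fusion (0.39 ± 0.09). Without control tumor 4 the list held 5 calls, and without RA tumor 4 it held 15.

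Of 44 genes tested in the axon guidance list, edgeR called 5 higher and 0 lower, against 1.40% and 0.218% of all genes. The list's median log2 fold change was 0.18. Positive values were found for 36 and negative values for 8, of which 1 had an unadjusted p under 0.05, and DESeq2 and limma voom also called 0 lower. ROBO2 and ROBO1, receptors of SLIT proteins, had log2 fold changes of 0.90 ± 0.16 (FDR 0.0237) and 0.26 ± 0.06 (FDR 0.0363). ROBO1 shows how small a called change could be: it was at 789, 790, 799 and 769 CPM in RA tumors and 675, 661, 685, 605 and 657 CPM in control tumors. The semaphorin receptors PLXNA1, PLXNA2 and PLXNA4 had 0.60 ± 0.10, 0.70 ± 0.12 and 0.62 ± 0.11. PLXNA2 was called in all 9 fits that leave out 1 tumor, PLXNA4 in 8 (lost without RA tumor 1), PLXNA1 in 7 (lost without RA tumor 1 or 2), ROBO1 in 3 and ROBO2 in 2 (FDR up to 0.0783). Without control tumor 4 the list held 3 calls.

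Of the adrenergic core transcription factors, 1 of 12 tested passed. MYCN, the amplified oncogene, was at 3237, 3098, 3147 and 2971 CPM in RA tumors and 2130, 3384, 2732, 3758 and 2940 CPM in control tumors (0.06 ± 0.13, FDR 0.876), so the RA tumors lay within the control range. PHOX2A, a homeobox factor of sympathetic neurons, was at 11.3, 9.55, 11.4 and 7.24 CPM in RA tumors and 4.00, 4.30, 3.02, 6.77 and 6.08 CPM in control tumors (1.02 ± 0.21, FDR 0.0312), and it was the 1 called of the 12. It was called in 3 of the 9 fits that leave out 1 tumor. MAOA, which breaks down catecholamines, had 0.66 ± 0.14 (FDR 0.0326, called in 2 of 9 fits).

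Of 24 tested genes in the list of cholesterol synthesis, 7 were called higher and none lower, against 1.40% and 0.218% of all genes. Positive log2 fold changes were found for 23, and the median was 0.31. HMGCS1, an early enzyme of the pathway, was at 136, 140, 117 and 91.7 CPM in RA tumors and 71.3, 91.8, 78.0, 76.8 and 67.3 CPM in control tumors (0.65 ± 0.12, FDR 0.0224). RA tumor 4 and control tumor 2 met at nearly the same level. FDFT1, which makes squalene, had 0.69 ± 0.12, DHCR7, the last enzyme of a branch, 0.45 ± 0.10, INSIG1, which retains SREBP precursors, 0.43 ± 0.09, and SREBF2, the transcription factor of the pathway, 0.50 ± 0.10. SREBF1, the factor of fatty acid synthesis, was the 1 called of 13 genes in that list (0.60 ± 0.10, FDR 0.0109). SREBF1 was called in all 9 fits that leave out 1 tumor, FDFT1 in 7 (lost without RA tumor 1 or 2), SREBF2 in 6, INSIG1 in 5, HMGCS1 in 2 and DHCR7 in 1. Without control tumor 4 the cholesterol list held 5 calls.

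Genes lower in RA tumors were fewer. SPARC (chr5:151661096-151686975, − strand), a matrix glycoprotein, was at 23.1, 18.9, 22.02 and 24.7 CPM in RA tumors and 32.8, 32.2, 39.4, 42.4 and 42.2 CPM in control tumors (−0.77 ± 0.11, FDR 0.00397). NNAT (chr20:37521206-37523690, + strand), an imprinted gene of developing brain, was at 177, 152, 182 and 221 CPM in RA tumors and 301, 235, 306, 307 and 325 CPM in control tumors (−0.69 ± 0.11, FDR 0.011). INHBE, a subunit of the activin family, was at 10.5, 9.24, 8.37 and 9.04 CPM in RA tumors and 12.8 to 15.3 CPM in control tumors (−0.63 ± 0.10, FDR 0.00927). For all 3 genes the groups were separate, which the rule for naming small changes requires. The lower genes with larger folds rested on low counts or on fewer fits. CPB1, a carboxypeptidase, held 2 to 4 counts in RA tumors and 9 to 15 in control tumors (−2.05 ± 0.38, FDR 0.0154, called in 6 of the 9 fits that leave out 1 tumor). IGSF1 was at 38.6, 56.4, 57.9 and 78.3 CPM in RA tumors and 95.8 to 165 CPM in control tumors (−1.12 ± 0.22, FDR 0.0461, called in 2 of 9). RREB1, a zinc finger factor, had −0.89 ± 0.17 (called in 5), the RNA-binding protein RBM24 −1.30 ± 0.26 (in 2), AGBL1 −1.13 ± 0.22 (in 4), the serotonin receptor subunit HTR3B −0.97 ± 0.21 (in 4), the potassium channel KCNK1 −1.29 ± 0.30 (in 1), the meiotic protein HORMAD1 −1.70 ± 0.38 (in 3), PRSS51 −1.38 ± 0.32 (in 2) and AC021087.5 −1.71 ± 0.38 (in 1).

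Of the called decreases of at most 2-fold, 6 are given here. CPT1A, which brings fatty acids into mitochondria, had a log2 fold change of −0.57 ± 0.11 (FDR 0.0194). MTX3, of the outer mitochondrial membrane, had −0.39 ± 0.07, the receptor GPR26 −0.37 ± 0.07, the motor MYO5B −0.57 ± 0.11, the DNA polymerase POLQ −0.39 ± 0.08 and the membrane protein EMP2 −0.51 ± 0.10. POLQ shows the pattern: it was at 36.99, 43.3, 36.9 and 45.5 CPM in RA tumors and 55.7, 50.7, 53.5, 52.4 and 55.3 CPM in control tumors. These 6 genes were called in 4 to 7 of the 9 fits that leave out 1 tumor.

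BIRC5, the anti-apoptotic protein survivin that also acts in mitosis, was at 123, 143, 131 and 169 CPM in RA tumors and 199, 178, 178, 173 and 211 CPM in control tumors (−0.41 ± 0.09, FDR 0.0366, called in 3 of the 9 fits that leave out 1 tumor). It is the 1 gene called of 53 tested in the G2/M list, of which 52 had negative log2 fold changes (median −0.20), and of 9 anti-apoptotic genes, all by edgeR. In the G2/M list 25 genes had negative values with an unadjusted p under 0.05, and DESeq2 and limma voom called 6 and 14 lower. The proliferation marker MKI67 was at 243, 300, 250 and 323 CPM in RA tumors and 342, 334, 339, 337 and 347 CPM in control tumors, separate but with an FDR of 0.0944 (−0.28 ± 0.08). All 45 genes of the G1/S and DNA replication list had negative values (median −0.26), and 0 were called by edgeR, while 26 had an unadjusted p under 0.05 and DESeq2 and limma voom called 3 and 12. Without RA tumor 4, 17 of the 45 and 15 of the 53 were called lower, and MKI67 had an FDR of 0.0148. CDKN1C, an inhibitor of cyclin-dependent kinases, was at 10.01, 8.58, 7.67 and 7.27 CPM in RA tumors and 3.80 to 6.14 CPM in control tumors (0.79 ± 0.16, FDR 0.0205, called in 6 of 9 fits). It was the 1 gene called by edgeR of 8 tested in the list of such inhibitors. Of the 8, 3 had positive and 5 negative log2 fold changes (median −0.21). By edgeR, 2 genes in each direction had an unadjusted p under 0.05. CASP9, the initiator caspase of the mitochondrial death pathway, had 0.56 ± 0.13 (FDR 0.0423, called in 3 of 9 fits) and was the 1 called of 18 pro-apoptotic genes. Of these 18, 6 had positive and 12 negative log2 fold changes (median −0.08). In these bulk tumors, fewer dividing cells and less of each transcript per cell cannot be told apart.

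**Figure D3:**
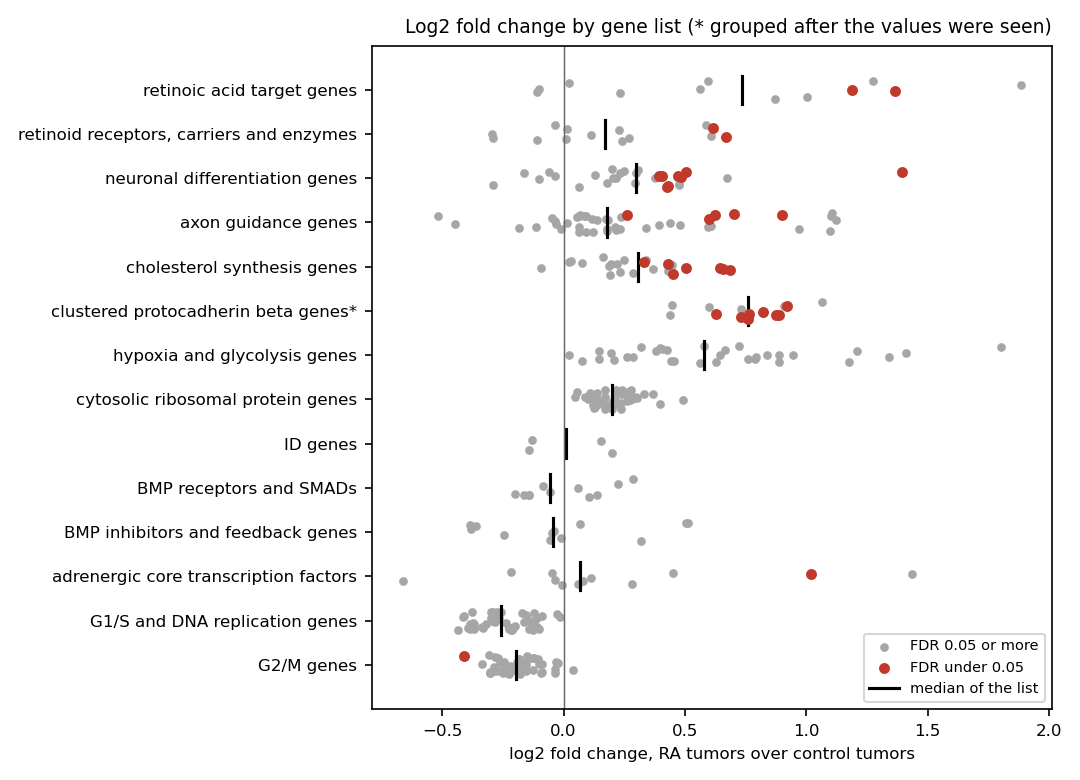
Log2 fold change (RA over control, horizontal axis) of each tested gene in 14 gene lists, 1 point per gene, with called genes in red, others in gray and the list median as a black line. Of 24 cholesterol synthesis genes 23 lie right of 0, and of 53 G2/M genes 52 lie left of it. The asterisk marks the protocadherin list, grouped after its values were seen. The other lists were chosen with earlier results of these data known.

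ID genes are the readout of BMP activity that the study follows, and none of the 4 was called. ID1 was at 9.65, 3.34, 4.25 and 2.07 CPM in RA tumors and 1.20, 1.70, 1.08, 15.8 and 1.38 CPM in control tumors. The groups overlapped only through control tumor 4, which was higher than every RA tumor. With all tumors its log2 fold change was 0.15 ± 0.98 (FDR 0.964), and without control tumor 4 it was 1.81 (FDR 0.0942) with no overlap. Over the 9 fits that leave out 1 tumor it ran between −0.41 (without RA tumor 1) and 1.81. ID3 was at 3.87, 1.47, 2.43 and 1.87 CPM in RA tumors and 1.60, 1.251, 1.51, 6.83 and 1.88 CPM in control tumors. Its log2 fold change was −0.14 ± 0.55 (FDR 0.933) with all tumors and 0.60 (FDR 0.31) without control tumor 4, and its sign also changed without RA tumor 2 (0.04). ID2 was at 22.1, 28.5, 30.01 and 23.4 CPM in RA tumors and 18.5, 22.5, 22.2, 26.8 and 23.4 CPM in control tumors (0.20 ± 0.12, FDR 0.441). ID4 was at 3.10 to 3.43 CPM in RA tumors and 2.20 to 4.37 CPM in control tumors (−0.13 ± 0.19, FDR 0.798). By edgeR 0 of the 4 had an unadjusted p under 0.05, and DESeq2 and limma voom called 0. When RA tumor 4 and control tumor 4 were both left out, ID1 was called (2.07, FDR 0.00753), a choice made after the values were seen.

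Control tumor 4 was high in other genes at the same time. SMAD6, an inhibitory SMAD raised by BMP signaling, was at 2.26, 0.349, 1.03 and 0.442 CPM in RA tumors and 0.229, 0.350, 0.162, 5.09 and 0.111 CPM in control tumors, too low in most tumors to be tested. COL1A1, a fibroblast collagen, was at 26.8, 13.5, 15.3 and 11.9 CPM in RA tumors and 23.2, 11.7, 19.2, 78.8 and 13.4 CPM in control tumors. FST, an inhibitor of activins and BMPs, was at 8.89 to 23.0 CPM in RA tumors, against 54.1 CPM in control tumor 4 and 4.92 to 13.5 CPM in the other control tumors. The part of these genes, and of the fibroblast markers, in the ID1 level of control tumor 4 was not tested. Among RA tumors, RA tumor 1 was the highest for ID1, ID3, SMAD6, COL1A1 and FST alike.

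**Figure D4:**
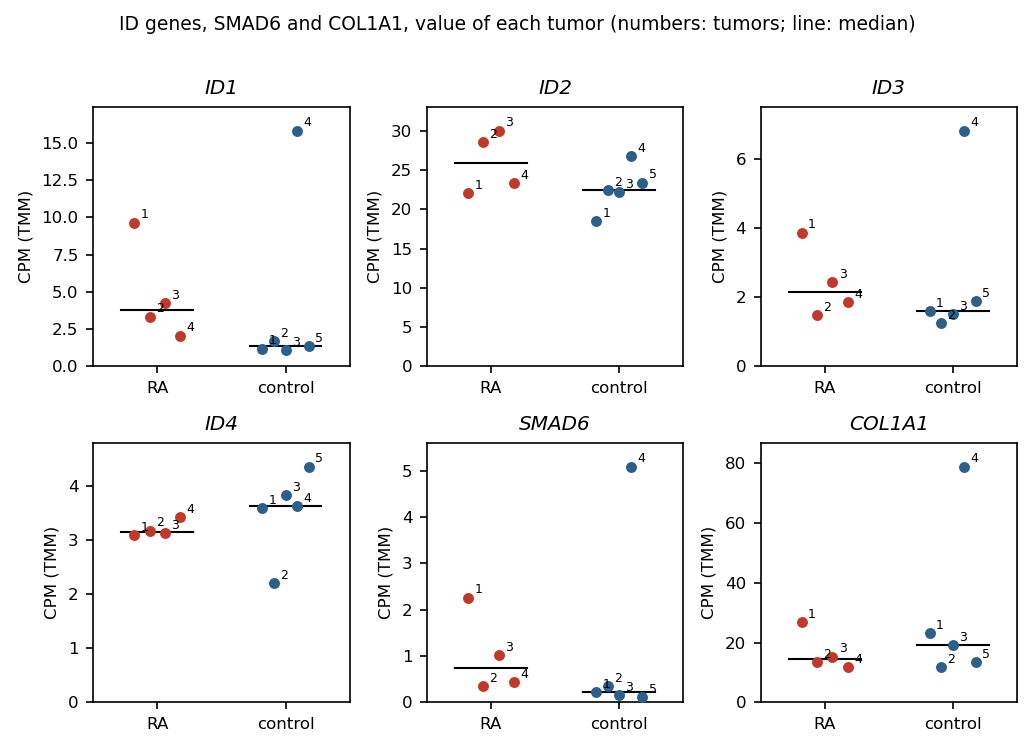
CPM (vertical axes, each starting at 0) of ID1, ID2, ID3, ID4, SMAD6 and COL1A1 in RA tumors 1 to 4 (left) and control tumors 1 to 5 (right), each point with the number of its tumor and a line at the group median. Control tumor 4 is the highest tumor for ID1 (15.8 CPM), ID3 (6.83 CPM), SMAD6 (5.09 CPM) and COL1A1 (78.8 CPM).

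Other parts of the BMP pathway gave 1 call. BMP7, a ligand, was at 33.1, 28.4, 24.3 and 25.2 CPM in RA tumors and 17.8, 17.5, 17.8, 12.3 and 15.3 CPM in control tumors (0.78 ± 0.12, FDR 0.00647), and it was called in all 9 fits that leave out 1 tumor. It is the 1 called of 8 ligands tested. Of 11 BMP receptors and SMADs and 12 BMP inhibitors and feedback genes tested, edgeR, DESeq2 and limma voom each called 0, while 2 and 3 had an unadjusted p under 0.05. SMAD9, which carries BMP signals, was at 518 to 617 CPM in RA tumors and 494 to 610 CPM in control tumors (0.11 ± 0.08, FDR 0.564).

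Hypoxia and glycolysis genes varied from tumor to tumor. All 33 genes tested in the list had positive log2 fold changes (median 0.58), and edgeR called 0 of these 33, with 16 at an unadjusted p under 0.05 and 8 and 4 called by DESeq2 and limma voom. VEGFA, the angiogenic factor raised by low oxygen, was at 564, 360, 307 and 155 CPM in RA tumors and 46.7, 179, 75.7, 283 and 66.3 CPM in control tumors (1.41 ± 0.63, FDR 0.349). Control tumors 2 and 4 lay within the range of the RA tumors. The list summed to 9113, 8245, 7221 and 6243 CPM in RA tumors and 4178, 6856, 4791, 7024 and 4858 CPM in control tumors. Of related genes outside the list, chosen after their values were seen, edgeR called PFKL, a phosphofructokinase of glycolysis, higher (0.45 ± 0.10, FDR 0.034) and EGLN1, an oxygen-sensing hydroxylase, higher (0.61 ± 0.13, FDR 0.0435). Each was called in 3 of the 9 fits that leave out 1 tumor (FDR up to 0.127 for PFKL and 0.152 for EGLN1). The enolase ENO2, described among neuronal genes, is also outside it.

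Further lists held 1 or 2 calls, against 1.40% of all genes tested called higher and 0.218% lower. PARP9 (0.84 ± 0.15, FDR 0.0129) was the 1 called of 23 interferon response genes, DUSP4, a phosphatase of MAP kinases, (0.78 ± 0.12, FDR 0.0109) the 1 of 27 immediate early genes, and the gelatinase MMP2 (0.39 ± 0.08, FDR 0.0205) and SPARC were the 2 of 27 collagen and matrix genes. DUSP4 was called in all 9 fits that leave out 1 tumor, PARP9 in 8 and MMP2 in 6. All 46 ribosomal protein genes tested had positive log2 fold changes (median 0.20), with 0 called by edgeR, 31 at an unadjusted p under 0.05, and 6 and 7 called by DESeq2 and limma voom. The 13 mitochondrial-genome genes had a median of −0.32, with 0 called, 1 at an unadjusted p under 0.05, and 1 and 0 called by those tools.

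The genes that differed in tumors were set beside the same cell line in culture, given 2 µM ATRA for 1, 3 or 6 days against DMSO (2 libraries each). The sets share no library, and they differ in drug form, kit and setting. Of the 17961 genes tested in both, 14.0% were higher and 14.7% lower after 1 day of ATRA, against DMSO, 22.8% higher and 25.6% lower after 3 days, and 39.0% higher and 39.2% lower after 6 days. Of the genes higher in RA tumors, 285 were tested in cells. Of these, 143 (50.2%) were higher in ATRA cells at 1 day, 198 (69.5%) at 3 days and 254 (89.1%) at 6 days. Lower in ATRA cells were 51 (17.9%) of the 285 at 1 day, 42 (14.7%) at 3 days and 19 (6.67%) at 6 days. Of the genes lower in RA tumors, 42 were tested in cells. Of these, 22 (52.4%) were lower in ATRA cells at 1 day, 30 (71.4%) at 3 days and 34 (81.0%) at 6 days. Higher in ATRA cells were 2 (4.76%) of the 42 at 1 day, 2 (4.76%) at 3 days and 5 (11.9%) at 6 days. The 285 genes had a median log2 fold change of 0.57 in tumors and of 0.17, 0.54 and 1.43 in cells at 1, 3 and 6 days, and the 42 genes −0.51 in tumors and −0.17, −0.34 and −1.22 in cells. The overlap was not tested.

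**Figure D5:**
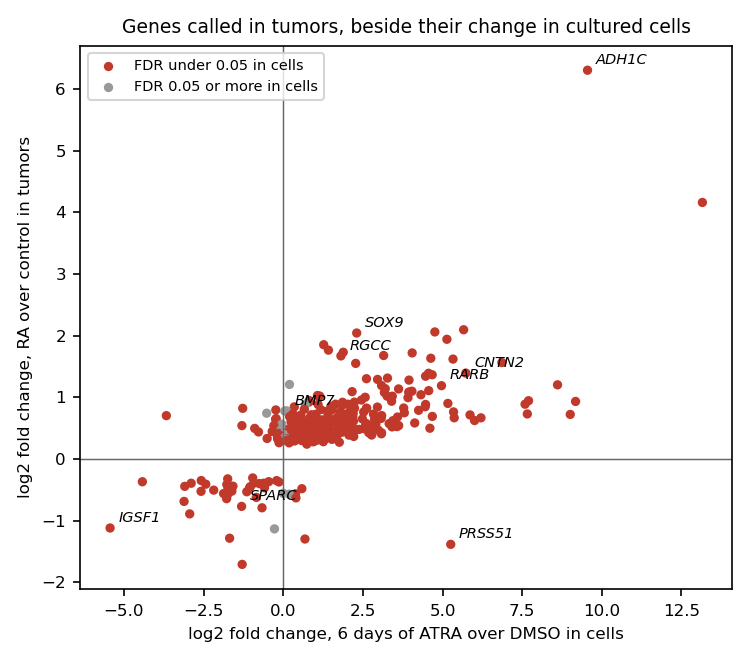
Log2 fold change in tumors (RA over control, vertical axis) against that in cultured cells (6 days of ATRA over DMSO, horizontal axis), 1 point per gene called in tumors and tested in cells, in red where it was also called in cells and in gray where not. Most of the 285 genes called higher in tumors lie right of 0, most of the 42 called lower lie left of 0, and PRSS51 lies at −1.38 in tumors and 5.26 in cells.

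Single genes are set side by side here. RARB had a log2 fold change of 1.19 in tumors and 3.23, 4.23 and 4.97 in cells at 1, 3 and 6 days, and CNTN2 1.39 in tumors and 1.74, 3.07 and 5.73 in cells. RGCC stood near its 6-day value, with 1.67 in tumors and −0.86, 0.77 and 1.81 in cells. The ID genes fell at 6 days in cells by 5.51 (ID1), 3.09 (ID2), 2.40 (ID3) and 1.31 (ID4), against 0.15, 0.20, −0.14 and −0.13 in tumors, where none was called. For cholesterol genes, HMGCS1 had 0.65 in tumors and −0.22 in cells at 6 days, and FDFT1 0.69 in tumors and 0.20 in cells. PRSS51 was lower in tumors (−1.38) and higher in cells at 6 days (5.26). BMP7 had 0.78 in tumors and −0.27, −1.12 and 0.11 in cells at 1, 3 and 6 days. No test of the difference between tumors and cells was made.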

How the data were processed

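RNA of 9 tumors was depleted of ribosomal RNA and turned into libraries (KAPA RNA HyperPrep with RiboErase). Per the submitters' processing notes, the authors used Trim Galore 0.4.4 for trimming, STAR 2.7.10a for alignment to hg38 and RSEM 1.3.3 for counting. The deposited values are RSEM's expected counts, unnormalized, of which 14.7% were fractional in tumors, and they were rounded. The strand setting, annotation release and any removal of mouse reads are not given in the sources used here, so a gene and its antisense neighbor may share reads. Of the called genes, 144 (42.1%) were overlapped by an exon on the other strand, against 39.4% of all tested, among them LOXL4, FAM163A, NGFR, RARA, NNAT, SPARC, NAV1, CBLB, CRMP1, WFS1, PHOX2A, SREBF1, CACNA1G, CACNA1H and CASP9. ERCC spike-in RNA was added per the labels and was not used for scaling.

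Of 60662 genes, 21098 passed filterByExpr (minimum count 10). The 4 RA and 5 control tumors were fitted alone with edgeR 4.0.16 in R 4.3.3 (TMM, robust quasi-likelihood test, Benjamini-Hochberg), with no covariate. The biological coefficient of variation was 13.9%, with 7 residual degrees of freedom. An SE is the log2 fold change over the square root of F. Depth was 17266558 to 29078889 counts a tumor, and intervals on counts cover counting error only. No pair of tumors differed by as little as sampling noise (lowest chi-square over degrees of freedom 6.2). Cells were fitted apart in the same way. Fits were tested on simulated data.

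The members and the 46 gene lists, 9 of them of cell type markers, were chosen with earlier results of these data known. Named genes are the 12 protein-coding genes with the largest and the 12 with the lowest log2 fold change among called genes whose groups do not overlap, the 10 with the smallest FDR in each direction among those of at most 2-fold, the called members of lists, and 21 genes named whatever their values. This made 94 genes, of which 75 were called, and some of them are not reported here. Alternatives were DESeq2 1.42.0, RLE size factors, no filter, all 17 libraries in 1 fit, limma voom (limma 3.58.1) with sample weights, the replicate number as a block, and leaving out each tumor. Gene type and position came from a reference annotation (hg38), which matched 60306 genes. Promoter sequences came from RefSeq, in which 206 of the 296 genes called higher had a window.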

Additional observations from a re-analysis of the deposited data

Results flagged for a closer look

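A tumor was singled out where its gap to the nearest other tumor of its group took most of the group's range (Dixon's 95% critical value), a rule that chance alone meets in about 1 of 20 groups. Of 88 groups examined, 9 met it. In control tumor 4, ID1 (15.8 CPM), ID3 (6.83 CPM) and SMAD6 (5.09 CPM) lay far above the other control tumors. In control tumor 1, the summed markers of skeletal muscle (301 CPM) and of endothelium (12.1 CPM) did so. In RA tumor 4, ENPP2 (1.63 CPM) lay below the other RA tumors. RET was high in RA tumor 2 (5.43 CPM), NGFR in RA tumor 1 (16.02 CPM) and CPB1 in control tumor 5 (0.8292 CPM). The cause of none of these was tested.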

How the results depend on the processing

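None of the 342 called genes changed sign under any alternative in which it had a value, which being called in the same tumors favors. RLE size factors moved no count by over 1.5 times (338 calls). Counts of calls did move with the tool: 342 by edgeR (296 higher, 46 lower), 870 by DESeq2 (669 and 201), 1096 by limma voom with sample weights (753 and 343), 689 without a filter (561 and 128) and 1252 with all 17 libraries in 1 fit (918 and 334), and 336, 342, 328 and 342 of the 342 genes were called in these. In the same order after edgeR, calls over 2-fold numbered 60, 116, 154, 124 and 157, and calls in the gene lists 37, 83, 100, 60 and 120. Small separated changes numbered 261, and 524, 545 and 690 by DESeq2, voom and with all libraries. Genes higher in tumors and in 6-day ATRA cells numbered 254, and 510 by DESeq2. Leaving out each tumor gave 79 to 841 calls, 24 to 160 over 2-fold, 55 to 665 small separated changes, 14 to 95 in lists, 0 among ID genes and 70 to 462 shared with cells. RA tumor 4 and control tumor 4 left out together, chosen after seeing the data, gave 1325, 274, 1028, 136, 1 and 620. The cause of these shifts was not tested.

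Groups shared replicate numbers, and deviations of same-numbered tumors correlated weakly or negatively (r of −0.10, 0.11, −0.08 and −0.33). Only RA tumor 2 correlated best with the control tumor of its own number. These few values cannot tell whether the numbers pair tumors. With the number as a replicate block there were 32 calls, 12 over 2-fold, 20 small separated changes and 5 in lists.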

Other observations

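Clustered protocadherin beta genes, adhesion proteins that give neurons surface identities, were grouped after their values were seen. Of 14 tested, 8 were called higher in RA tumors, against 1.40% of all genes, and all 14 had positive log2 fold changes (median 0.76). PCDHB11 was at 17.6, 19.4, 19.3 and 15.6 CPM in RA tumors and 11.6, 12.5, 11.3, 11.1 and 11.6 CPM in control tumors (0.63 ± 0.09, edgeR FDR 0.00647). PCDHB12 and PCDHB14 had log2 fold changes of 0.82 ± 0.14 and 0.76 ± 0.14. These genes are related in sequence and lie in a cluster, so some reads may be shared among them. PCDHB11 was called in all 9 fits that leave out 1 tumor and the other 7 called genes in 2 to 8.

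Of 18 alpha subunits of voltage-gated sodium and calcium channels tested, also grouped after their values were seen, edgeR called 5 higher and 0 lower. The shares of all genes were 1.40% and 0.218%. Of the 18, 13 had positive and 5 negative log2 fold changes. Of the 5 negative, 1 had an unadjusted p under 0.05, and DESeq2 called 1 lower and limma voom 0. Among them, CACNA1G, a low-threshold calcium channel, was at 6.26, 7.92, 5.24 and 6.29 CPM in RA tumors and 3.66, 3.55, 3.18, 3.41 and 1.93 CPM in control tumors (edgeR FDR 0.0138), with no overlap. The low-threshold calcium channels CACNA1G, CACNA1H and CACNA1I had log2 fold changes of 1.03 ± 0.19, 0.68 ± 0.14 and 0.82 ± 0.19, and SCN2A 0.60 ± 0.13. CACNA1G was called in 8 of the 9 fits that leave out 1 tumor (lost without RA tumor 2), CACNA1H in 4, and CACNA1I and SCN2A in 2.

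Protein-coding genes called in RA tumors spanned more of the genome than most. The median span from the annotated start to end was 73555 bp for 272 called higher and 56063 bp for 44 called lower, against 34673 bp for all 14219 tested, a description that was not tested.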
